A study of Homo sapiens with 6 samples.

Results

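The 45 genes described here encode proteins of the cytosolic ribosome and the factors that drive peptide elongation on it. They were taken from the deposited table by gene name, and all 45 were found among its 60612 genes. They comprise 3 proteins of the ribosomal stalk, 23 further proteins of the large subunit, 16 of the small subunit and 3 elongation factors. The cells were PANC-1, an established human pancreatic carcinoma line grown in medium with fetal bovine serum. Poly(A) RNA was sequenced in 3 libraries of cells given 50 µM D(+)-raffinose pentahydrate, a plant trisaccharide, for 24 h and in 3 untreated libraries, described only as PANC-1 cells with no vehicle named. The treatment field names the compound for the untreated libraries too, so the groups follow the sample descriptions. Since separate cultures are not stated for the 3 libraries of either group, the p-values here may reflect technical spread alone.

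A ribosome is built from ribosomal RNA and one copy of most of its proteins, with several copies of the acidic stalk proteins. The elongation factors bring aminoacyl-tRNA to it and move it along the mRNA. Their mRNAs are among the most abundant of a growing cell. In vertebrates nearly all of them begin with a 5′ terminal oligopyrimidine (TOP) stretch, a C at the cap followed by further pyrimidines, through which mTOR complex 1 and the RNA-binding protein LARP1 control how well they are translated and how stable they are. PI3K/AKT signalling, which the submitters put in the title, lies upstream of mTOR. The libraries measure mRNA abundance and not translation.

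The TOP stretch is the sequence feature that ties these genes together, so start sites of the stalk proteins, the elongation factors and some subunit proteins with and without it are shown. RefSeq start sites on GRCh38.p14 were matched by symbol for 37 of the 45 members, and not for RPL5, RPL7, RPL8, RPL23, RPL30, RPL37, RPS2 and RPS20. Each line gives 15 bases before and 15 bases from the annotated start, 5′ to 3′ on the gene's strand, and capitals mark the stretch searched for, a C within the first 10 transcribed bases followed by an unbroken run of at least 4 C or T.
RPLP0 at chr12:120201097-120201126, minus strand: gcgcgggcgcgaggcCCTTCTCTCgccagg
RPLP1 at chr15:69452803-69452832, plus strand: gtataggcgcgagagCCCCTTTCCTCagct
RPLP2 at chr11:809952-809981, plus strand: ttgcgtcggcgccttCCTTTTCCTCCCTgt
RPL3 at chr22:39319609-39319638, minus strand: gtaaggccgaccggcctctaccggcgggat
RPL11, second annotated start, at chr1:23691791-23691820, plus strand: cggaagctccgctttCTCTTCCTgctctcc
RPL14 at chr3:40457324-40457353, plus strand: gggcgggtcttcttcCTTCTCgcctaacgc
RPL15, first annotated start, at chr3:23916530-23916559, plus strand: ggcgctggggcctgctggaggagcttcacg
RPL32, first annotated start, at chr3:12841551-12841580, minus strand: gggttacgacccatcagCCCTTgcgcgcca
RPS6 at chr9:19380222-19380251, minus strand: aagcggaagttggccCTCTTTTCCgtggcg
RPS7 at chr2:3575245-3575274, plus strand: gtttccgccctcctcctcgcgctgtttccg
RPS10 at chr6:34426055-34426084, minus strand: ccgcgcatgctccttCCTTTCCagccccgg
RPS16 at chr19:39435935-39435964, minus strand: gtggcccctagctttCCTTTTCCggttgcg
EEF1A1 at chr6:73521018-73521047, minus strand: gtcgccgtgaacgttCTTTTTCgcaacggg
EEF1B2, second annotated start, at chr2:206159880-206159909, plus strand: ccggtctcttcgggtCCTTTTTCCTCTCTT
EEF2 at chr19:3985449-3985478, minus strand: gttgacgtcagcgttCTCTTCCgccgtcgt

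On the transcript strand, the stretch was present at 1 or more starts of 31 of the 37 matched members (83.8%). Of all 27305 genes in the RefSeq table, 23.3% had it in the same 10-base window. The run began at the very first transcribed base in 27 members (73.0%), against 5.14% of all genes in that table. Runs were 5 to 16 bases long with a median of 8, and the longest, as in EEF1B2, go on past the bases shown. RPL3 and RPS7 begin with C but are interrupted before 4 further pyrimidines, so they counted as lacking it, which says only that these letters are not in this window. RPL15 lacks it at all 3 of its annotated starts. The rest of the cytosolic ribosomal proteins were alike, with the stretch in 28 of 34 matched genes.

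No member passed the test for a difference between raffinose-treated and untreated cells. By edgeR's quasi-likelihood test with Benjamini-Hochberg adjustment over all 18863 genes tested, 0 of 45 members were called higher and 0 lower at an adjusted p under 0.05. Over all genes tested 0.0371% were called higher and 0.0848% lower. At an unadjusted p under 0.05 edgeR had 2 members, RPS16 and RPL23, where 13.3% of all tested genes were. DESeq2 called 0 members, against 1.1% of its tested genes higher and 1.83% lower. A limma fit on log2(FPKM + 1) called 0 as well, against 0.15% higher and 0.233% lower. The smallest adjusted p among the members was 0.356 in edgeR.

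The groups overlapped for every one of the 45 members on the scale of CPM (counts scaled to a common library size with TMM factors), where 10.6% of all tested genes lay entirely higher and 10.9% entirely lower in the raffinose libraries. Each log2 fold change below is raffinose relative to untreated cells, with its standard error (SE) from edgeR. Of the members, 35 had a negative value (77.8%) and 10 a positive one, with a median of -0.07 and a range from -0.26 for RPL23 to 0.12 for RPL15. Over all tested genes 49.0% were negative and the median was 0.01. With library totals in place of TMM factors 29 members were negative, and 27 in the limma fits on FPKM. Among the 778 tested genes whose mean CPM was at least that of the lowest member, the members included, 546 were negative (70.2%), with a median of -0.06. The excess of small negative values was thus also present among abundant genes in general, and no test was made of it. The members were not like these genes in every respect. Of the 778, 165 had an unadjusted p under 0.05 by edgeR, 30 higher and 135 lower, against 2 of the 45 members. In CPM 45 of the 778 lay entirely higher and 179 entirely lower with raffinose, against 0 members.

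Single libraries stood out across the members. Untreated replicate 1 had the highest CPM of the 6 libraries for 34 of the 45 members, and raffinose replicate 3 the lowest for 29. Raffinose replicate 2 was the highest for 9. The median member's log2 CPM differed from its own mean over the 6 libraries by 0.15 in untreated replicate 1, 0.06 in raffinose replicate 2 and -0.13 in raffinose replicate 3. Without untreated replicate 1 the count of negative members went from 35 to 26 and the median fold change to -0.02. Leaving out raffinose replicate 3 likewise gave 26 negative members and a median of -0.02. In the opposite direction the median was -0.11 without untreated replicate 2 and -0.10 without raffinose replicate 2, and no member was called in any of these fits.

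**Figure D1:**
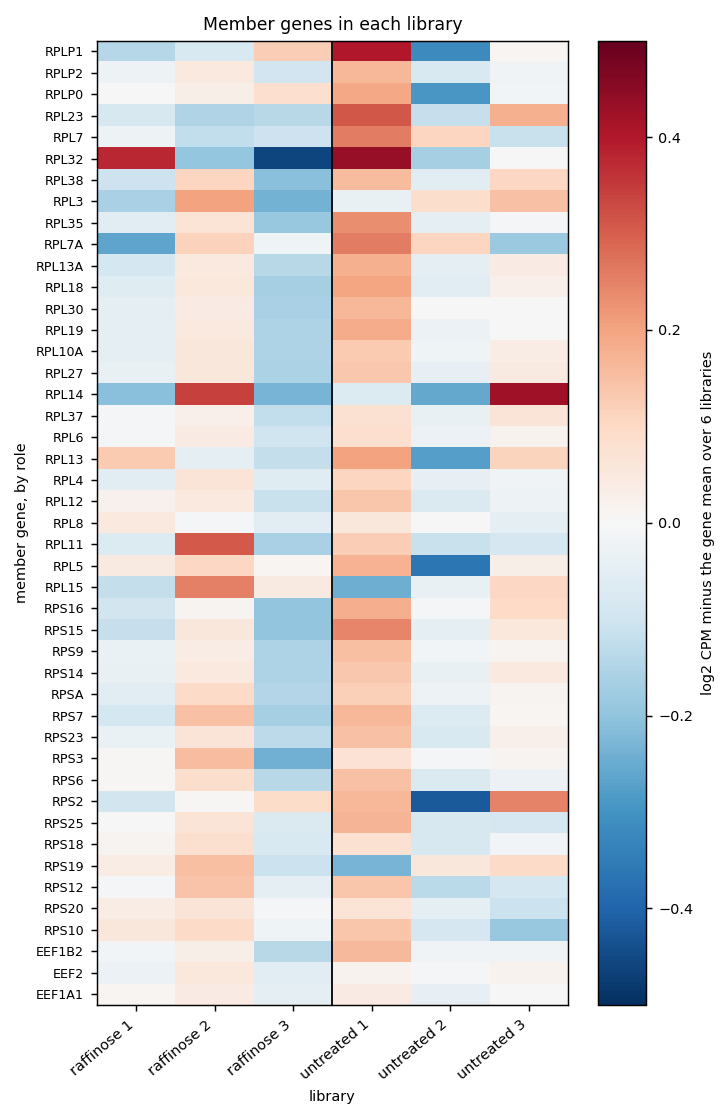
Heat map of log2 CPM of each of the 45 genes (rows, by role) in each of the 6 libraries (columns), as the difference from the gene's mean over the 6 libraries; red is above and blue below that mean, and the vertical line separates the groups. Untreated replicate 1 is red for most genes and raffinose replicate 3 blue, while RPL32, RPL14 and RPS2 show single libraries far from their neighbours.

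As a whole the 45 genes took 5.41%, 5.67% and 5.23% of all counts in the raffinose libraries, in replicate order, and 5.76%, 5.28% and 5.51% in the untreated ones. The groups overlapped, with a mean of 5.44% ± 0.221 in raffinose and 5.52% ± 0.242 in untreated libraries (SD, n = 3 per group). EEF1A1 alone made up 21.0% to 22.9% of the members' counts. Since these are shares of a library's counts in bulk RNA, fewer cells that express a gene and less of its RNA per cell cannot be told apart, and a change of total mRNA per cell would not show. Library totals ranged from 59723420 to 66063664 counts, in units that may overstate read pairs. The intervals below come from the edgeR fit and include the spread between libraries.

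**Figure D2:**
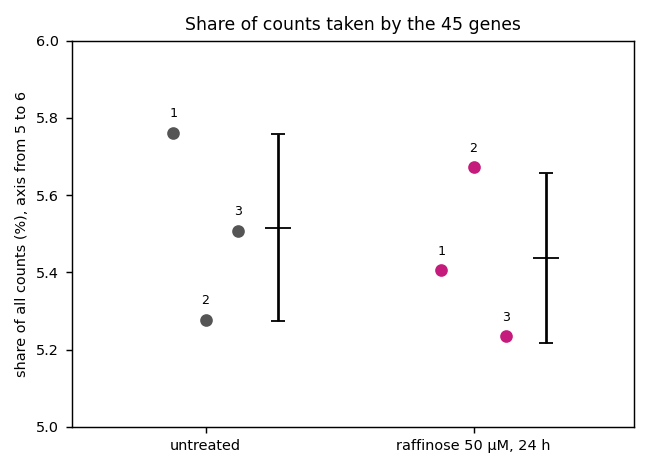
Share of all counts taken by the 45 genes in each library, in percent on an axis from 5 to 6, with the replicate number above each point and the mean ± SD of 3 libraries beside each group. The raffinose points lie between 5.23% and 5.67% and the untreated points between 5.28% and 5.76%, so the groups overlap.

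The labelled cell type was checked against epithelial keratins. KRT8 was at 2009, 2216 and 2497 CPM with raffinose and at 3590, 2793 and 3490 CPM without, and KRT18 at 1450, 1495 and 1303 CPM with and at 2119, 1838 and 1875 CPM without. Both lay entirely lower with raffinose and were called by DESeq2 (adjusted p = 0.00837 and 0.00352) but not by edgeR (adjusted p = 0.164 and 0.119). KRT7 was at 3.54 to 4.27 CPM with and 5.13 to 5.95 CPM without raffinose, while KRT19 and EPCAM stayed under 1 CPM. The 5 epithelial genes summed to 3463 to 3805 CPM with and 4636 to 5716 CPM without raffinose. Of the 20 markers of other cell types, the acinar genes, HBB and CD3E had 0 counts in all 6 libraries, and endothelial genes summed to at most 0.265 CPM. The 5 fibroblast genes summed to 40.3 to 45.3 CPM in raffinose and 35.1 to 38.3 CPM in untreated libraries, nearly all of it COL1A1 (log2 fold change 0.24, SE 0.07, edgeR adjusted p = 0.242). The leukocyte list of 5 genes summed to 17.6 to 24.0 CPM in raffinose and 33.3 to 41.5 CPM in untreated libraries, nearly all of it CD68, a lysosomal protein gene that is not limited to leukocytes, with PTPRC at or near 0. Mitochondrial transcripts took 9.35% to 9.66% of counts in raffinose and 8.47% to 9.54% in untreated libraries. The part of these in the members' values was not tested.

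EEF2 and EEF1A1 had the smallest coefficients of variation within groups of all members, 2.79% and 3.00%. EEF1A1, which delivers aminoacyl-tRNA to the ribosome, was at 12203, 12470 and 11700 CPM with raffinose and at 12450, 11778 and 12119 CPM without, each time in the order of replicates 1 to 3. Libraries of both groups are interleaved, and its log2 fold change was 0.00102 (SE 0.04, 95% interval -0.10 to 0.10, edgeR adjusted p = 0.996). EEF2, the GTPase that moves the ribosome along the mRNA by one codon, was at 2118, 2239 and 2081 CPM with raffinose and at 2189, 2153 and 2184 CPM without. Raffinose replicates hold both its highest and its lowest value, and its log2 fold change was -0.02 (SE 0.04, 95% interval -0.13 to 0.09). EEF1B2, a subunit of the exchange factor that recharges EEF1A with GTP, was at 352, 363 and 323 CPM with and at 397, 351 and 351 CPM without raffinose. Only untreated replicate 1 exceeded every raffinose library, and the log2 fold change was -0.08 (SE 0.07). In the deposited table EEF1A1 (ENSG00000156508) lies on chromosome 6 from 73515750 to 73521900, EEF2 (ENSG00000167658) on chromosome 19 from 3976056 to 3985463, both on the minus strand, and EEF1B2 (ENSG00000114942) on chromosome 2 from 206159585 to 206162928 on the plus strand.

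The stalk proteins form the flexible arm of the large subunit that recruits elongation factors, with RPLP0 as the base that binds pairs of RPLP1 and RPLP2. RPLP0 was at 886, 903 and 938 CPM with raffinose and at 1012, 724 and 878 CPM without. The untreated libraries bracket the raffinose ones, with a log2 fold change of 0.06 (SE 0.12). RPLP1 was at 727, 761 and 874 CPM with and at 1057, 644 and 808 CPM without raffinose, again with untreated replicates 1 and 2 as the extremes (log2 fold change -0.09, SE 0.18). RPLP2 was at 706, 744 and 672 CPM with and at 807, 683 and 711 CPM without (-0.05, SE 0.08). The edgeR adjusted p of the stalk genes ranged from 0.819 to 0.877.

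Of the large-subunit proteins 20 of 23 were negative. Their median was -0.10 on the log2 scale, and none passed. RPL23, which lies on the face of the large subunit that meets the small one and can bind the p53 regulator MDM2, had the lowest value of all members. It was at 588, 560 and 565 CPM with raffinose and at 771, 574 and 705 CPM without. All raffinose values but that of replicate 1 lie under every untreated one, and the log2 fold change of -0.26 (SE 0.11) had an unadjusted p of 0.0484 and an adjusted p of 0.372 by edgeR. The next lowest were RPL7 at 663 ± 23.5 with and 748 ± 94.8 CPM without raffinose (-0.17, SE 0.10), and RPL32, RPL38 and RPL3 with log2 fold changes of -0.16, -0.13 and -0.12.

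RPL5 and RPL11, together with 5S ribosomal RNA, inhibit MDM2 when ribosome assembly is disturbed. Both had positive values. RPL5 was at 674, 704 and 659 CPM with raffinose and at 738, 510 and 667 CPM without, so its fold change of 0.09 (SE 0.13) goes with the low value of untreated replicate 2. RPL11 was at 945, 1225 and 885 CPM with and at 1080, 916 and 934 CPM without, so that raffinose replicate 2 stands above the rest (0.06, SE 0.13). RPL15 was the third large-subunit member with a positive value and had the highest of all 45 (0.12, SE 0.12). It was at 852, 1103 and 956 CPM with and at 781, 903 and 995 CPM without raffinose, and untreated replicate 1, the highest library for most members, was the lowest here.

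RPL3 and RPL4, which reach into the peptidyl transferase centre and the peptide tunnel, were at 1416 ± 239 and 1977 ± 97.6 CPM with raffinose and at 1540 ± 98.9 and 2024 ± 115 CPM without (SD, n = 3 per group). RPL8, which binds ribosomal RNA near the peptidyl transferase centre, had the smallest variation within groups of the ribosomal proteins, at 1463, 1402 and 1364 CPM with and at 1469, 1414 and 1370 CPM without raffinose. Its log2 fold change of -0.01 had a 95% interval of -0.13 to 0.11. RPL13A, which in macrophages leaves the ribosome to silence inflammatory mRNAs, was at 1047 ± 70.8 and 1135 ± 90.3 CPM, and RPL38, which favours the translation of a subset of Hox mRNAs, at 454 ± 51.1 and 499 ± 37.8 CPM. The remaining large-subunit members RPL6, RPL7A, RPL10A, RPL12, RPL13, RPL14, RPL18, RPL19, RPL27, RPL30, RPL35 and RPL37 had log2 fold changes between -0.12 for RPL35 and -0.03 for RPL12.

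Small-subunit proteins had 11 negative and 5 positive values of 16 and a median of -0.04. RPS16, at the part of the subunit that faces the tRNA sites, was by far the most abundant ribosomal protein member in counts. It was at 5009, 5397 and 4662 CPM with raffinose and at 6063, 5320 and 5718 CPM without. Raffinose replicate 2 exceeded untreated replicate 2, so the groups overlapped, and the log2 fold change of -0.18 (SE 0.07) had an unadjusted p of 0.0416 and an adjusted p of 0.356 by edgeR. RPS15, the member with the lowest CPM, was at 192, 216 and 181 CPM with and at 246, 201 and 215 CPM without raffinose (-0.17, SE 0.10). RPS16 (ENSG00000105193) lies on chromosome 19 from 39433137 to 39435949 on the minus strand and RPL23 (ENSG00000125691) on chromosome 17 from 38847860 to 38853764 on the minus strand, as the deposited table gives them.

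RPS6, whose protein is the classic substrate of the S6 kinases downstream of mTOR complex 1, was at 940, 996 and 852 CPM with raffinose and at 1036, 890 and 918 CPM without. The highest value was untreated and the lowest from raffinose, with the other libraries mixed between them, and the log2 fold change was -0.03 (SE 0.08, 95% interval -0.23 to 0.17, edgeR adjusted p = 0.916). This concerns the mRNA and not the phosphorylation of the protein. RPS3, at the entry of the mRNA channel, was at 1257 ± 171 and 1295 ± 38.0 CPM, and RPS2 beside it at 1280 ± 79.8 and 1301 ± 303 CPM. RPS19, the gene most often mutated in Diamond-Blackfan anaemia, was at 525, 567 and 474 CPM with and at 435, 531 and 546 CPM without raffinose (0.05, SE 0.11). RPSA, also known as the laminin receptor, was at 1006 ± 86.4 and 1056 ± 56.1 CPM. RPS23, at the decoding centre, was at 928 ± 61.7 and 971 ± 75.2 CPM.

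Beside RPS19, the positive values in the small subunit were those of RPS10 (0.08, SE 0.09), RPS20 (0.06, SE 0.06), RPS12 (0.06, SE 0.09) and RPS18 (0.01, SE 0.06). RPS20 was at 350 ± 8.96 with and 336 ± 21.4 CPM without raffinose, and RPS12 at 716 ± 50.9 and 689 ± 71.7 CPM. RPS7, RPS9, RPS14 and RPS25 had log2 fold changes between -0.10 for RPS9 and -0.01 for RPS25. The edgeR adjusted p of the 16 small-subunit genes ranged upward from the 0.356 of RPS16.

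**Figure D3:**
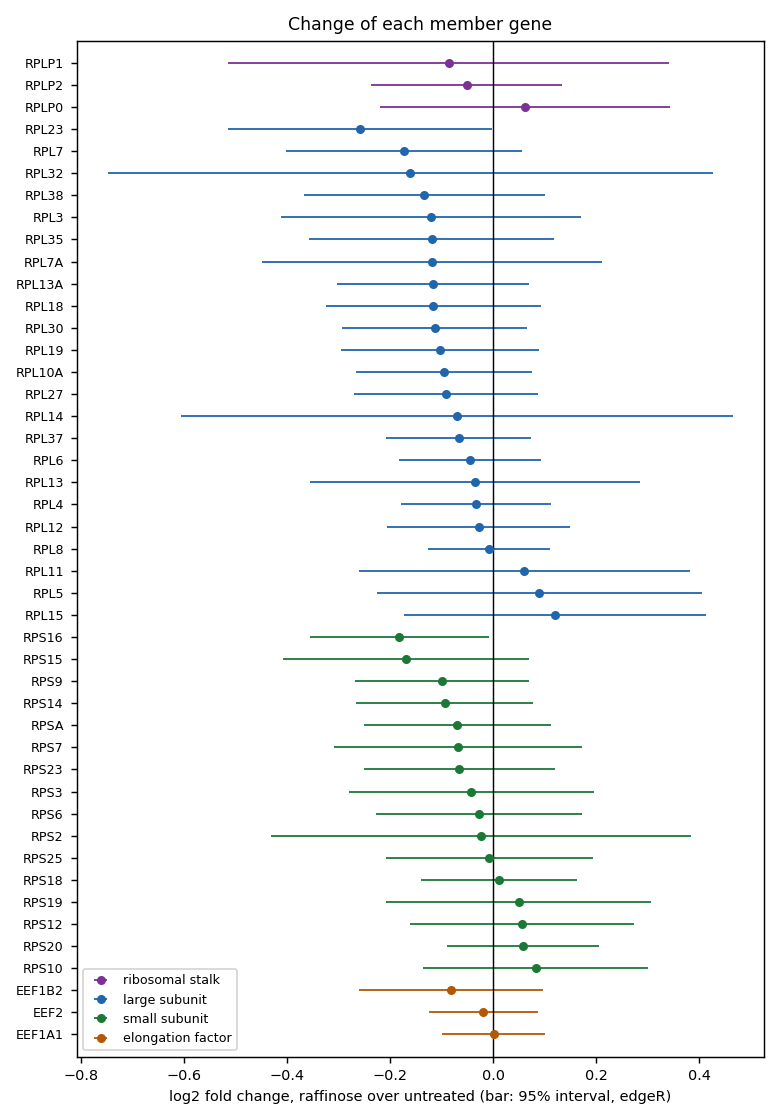
Log2 fold change of each of the 45 genes, raffinose over untreated, by role, with the 95% interval of the edgeR fit as a horizontal bar and a vertical line at 0. Only the intervals of RPL23 and RPS16 leave out 0, before any adjustment for the number of genes, and RPL32 and RPL14 have the widest.

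The intervals reflect the spread between these libraries only, which may be technical, so they do not bound a difference between separate cultures. For 43 of the 45 members the unadjusted 95% interval lay within a 1.5-fold change in either direction, and 30 had an absolute log2 fold change under 0.1. The exceptions were RPL32, with an interval of -0.75 to 0.43, and RPL14, with one of -0.61 to 0.47. In RPL32, a large-subunit protein, raffinose replicate 1 and untreated replicate 1 stood apart at 976 and 1017 CPM from 658 and 548 CPM in the other raffinose libraries and 670 and 754 CPM in the other untreated ones. In RPL14, also of the large subunit, it was raffinose replicate 2 at 676 CPM and untreated replicate 3 at 715 CPM, against 447 to 509 CPM in the other libraries. In both genes the libraries that stood apart thus came from both groups, as did the remaining ones. The highest library exceeded the lowest by more than 1.5-fold in 4 members, the others being RPLP1 and RPS2, and by 1.25-fold in the median member. The coefficient of variation within groups had a median of 8.01% over the members and ranged from 2.79% for EEF2 to 26.8% for RPL32. Its median was lower, at 6.34%, over the 778 tested genes at least as abundant as the lowest member.

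Many ribosomal protein genes have processed pseudogenes, near-identical copies from which reads cannot always be told apart. The table lists 609 rows named as pseudogenes of a member, and 231 of them held counts. Rows of this kind took more than 5% of the combined gene and pseudogene counts for 16 members and under 1% for 22. The share was largest for RPSA, with a median of 27.4% over the libraries, RPL7 with 26.7%, RPS2 with 20.2%, RPS7 with 19.7% and EEF1A1 with 13.2%. With pseudogene rows added to their gene, 36 members were negative, the median log2 fold change was again -0.07 and none was called.

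**Figure D4:**
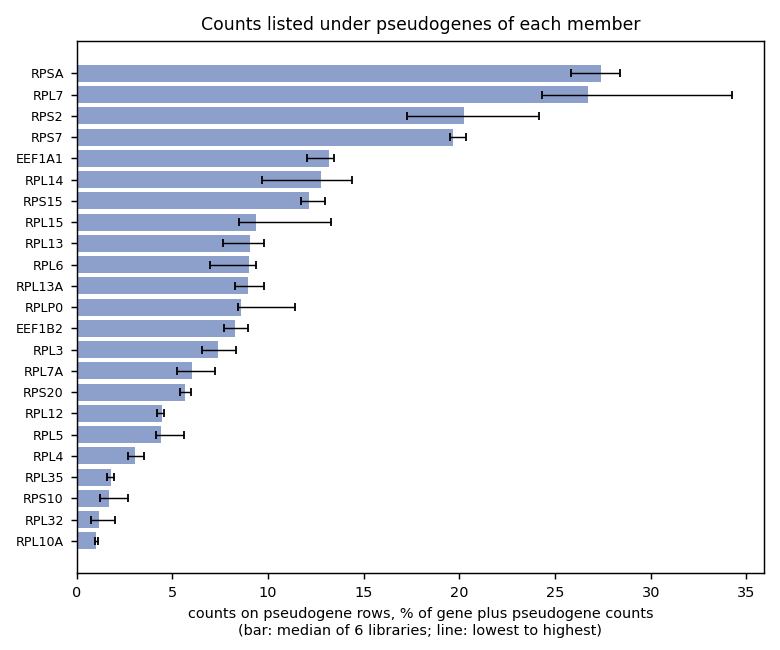
Counts listed under pseudogene rows as a percentage of gene plus pseudogene counts, for the members whose median exceeds 1%; bars give the median of the 6 libraries and lines run from the lowest to the highest library. RPSA, RPL7, RPS2 and RPS7 lie near 20% or above, and RPL7 has the widest range.

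Rows that overlap a member held more than 1% of the combined counts in at least 1 library for 9 members, in 8 cases on the opposite strand. The libraries were strand-marked with dUTP, and no source used here says whether the counting made use of it. The largest on the opposite strand was PTPN11, across from RPL6, with 20.9% to 25.5%. On the same strand, the readthrough row RPS10-NUDT3 held 16.5% to 31.3% of the combined counts of RPS10 and itself. RPS10 was at 400, 411 and 378 CPM with raffinose and at 423, 363 and 337 CPM without, while the readthrough row was at 111, 141 and 109 CPM and at 83.6, 123 and 154 CPM. The order of the untreated libraries was reversed between these rows, while that of the raffinose libraries was the same. Reads of the shared exons could be listed under either row, so the values of RPS10 are uncertain.

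Levels per length were compared as FPKM, the authors' fragment counts scaled by gene length and library size. In untreated cells the members ranged from 53.1 FPKM for RPL14 to 1821 FPKM for EEF1A1, with a median of 211, and 28 of 45 lay within 2-fold of that median. EEF1A1 at 1821 ± 22.2 and RPS16 at 1753 ± 85.3 FPKM headed the order and overlapped each other. RPS12 followed at 887 ± 75.4 FPKM, apart from its neighbours on both sides, and then RPL7A at 640 ± 89.5, RPL19 at 550.4 ± 35.0 and RPL8 at 540.3 ± 12.4 FPKM, which overlapped in turn. At the low end were RPS15 at 84.9 ± 7.15, RPS7 at 71.6 ± 4.68 and RPL14 at 53.1 ± 13.6 FPKM. Of the 44 neighbouring pairs in this order, 37 overlapped between untreated libraries. RPS20 was the only member whose groups did not overlap in FPKM, at 100.5 to 102.5 with and 90.6 to 99.8 FPKM without raffinose, although they overlapped in CPM. Of all tested genes 13.5% lay entirely higher in FPKM in the raffinose libraries and 8.98% entirely lower. With raffinose the median member was at 205 FPKM, and EEF1A1, RPS16 and RPS12 were at 1870 ± 32.2, 1585 ± 92.0 and 946 ± 54.1 FPKM.

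The order depends on the length used. The length that count and FPKM imply was within 5% of a fixed multiple of the union of all GENCODE 29 exons for 85.9% of 7766 well-covered genes, and for 38 of the 45 members. Such a union includes exons of long or intron-retaining transcripts. It was 8626 bases for RPL14, 8153 for RPL37 and 5584 for RPS7, against 767 for RPS12 and a median of 3717 over the members. RPS12, RPL13 and EEF1A1 were among the members outside the 5%. Their implied lengths were 0.833, 0.626 and 0.920 of what the fixed multiple of their union gives. At equal counts a longer union gives a lower FPKM, which bears on the low places of RPL14 and RPS7 in the order. Between libraries the implied length of a member varied by at most 0.334% (coefficient of variation), so comparisons of 1 gene between libraries do not depend on it.

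**Figure D5:**
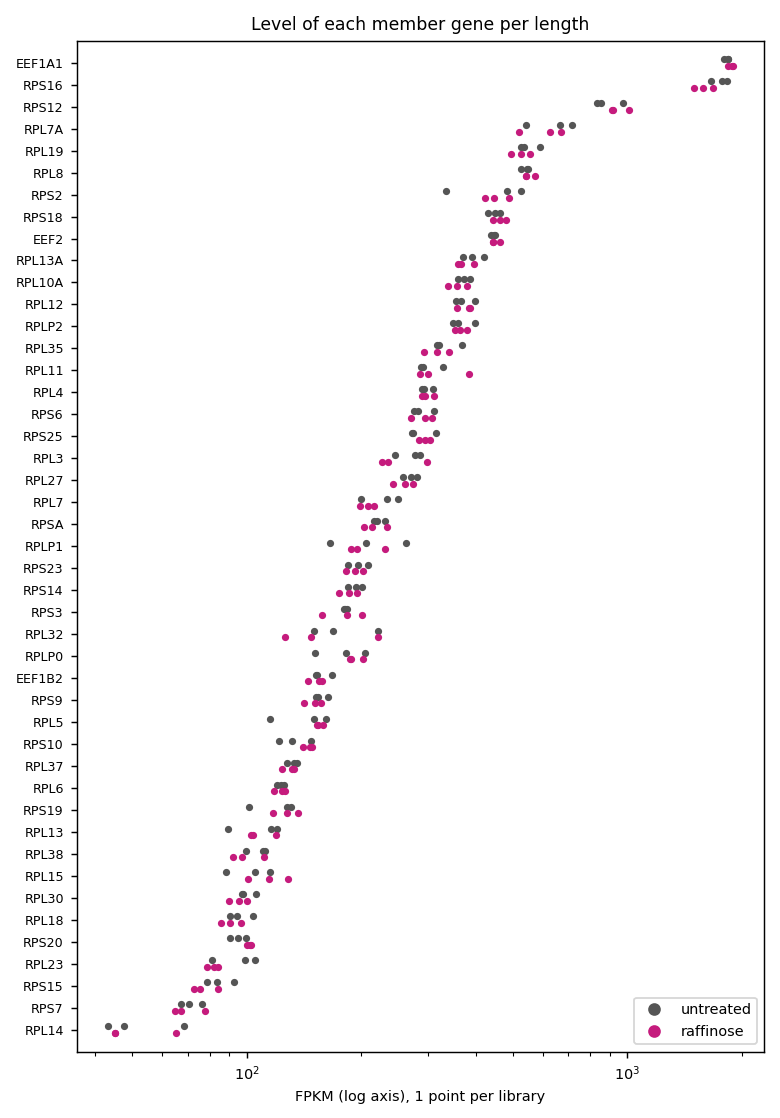
FPKM of each of the 45 genes in each library on a log axis, ordered by the untreated mean, with grey points for the 3 untreated and magenta points for the 3 raffinose libraries. EEF1A1 and RPS16 lie well above the other members, RPL14 is lowest at 53.1 FPKM without raffinose, and the groups overlap for every gene but RPS20, at 100.5 to 102.5 FPKM with and 90.6 to 99.8 FPKM without raffinose.

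The other genes of the translation machinery were described with lists chosen for this purpose. Their counts are to be read beside the shares of all tested genes. Of those genes 13.3% had an unadjusted p under 0.05 by edgeR. DESeq2 called 1.1% of its tested genes higher and 1.83% lower. In CPM 10.6% lay entirely higher and 10.9% entirely lower in the raffinose libraries. Of 43 further cytosolic ribosomal protein genes, all tested, 31 were negative, the median log2 fold change was -0.06 and edgeR called 0, with 5 at an unadjusted p under 0.05, 3 higher and 2 lower. DESeq2 called 0 higher and 1 lower. RPS3A had the highest value, 0.43 (SE 0.15), from 712, 893 and 1036 CPM with and 602, 610 and 742 CPM without raffinose, and overlapped. RACK1, the scaffold protein of the small subunit, had 0.17 (SE 0.05) and RPS27L, a paralogue of RPS27, 0.24 (SE 0.09), with groups that did not overlap and edgeR adjusted p of 0.282 and 0.341.

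Of 20 further elongation, release and diphthamide genes edgeR called 0, with 4 at an unadjusted p under 0.05 and a median of -0.07. The smallest p belonged to DPH1 (-0.51, SE 0.17), of the diphthamide synthesis that modifies EEF2, and DNAJC24 (0.27, SE 0.09) of the same pathway had the opposite sign. EIF5A, which helps the ribosome through proline stretches, had -0.19 (SE 0.07) and the release factor ETF1 -0.13 (SE 0.05). Of 35 initiation factor genes edgeR called 0, with 9 at an unadjusted p under 0.05, where 13.3% of all tested genes were. DESeq2 called 1 of the 35 higher and 1 lower. EIF4B, itself a TOP mRNA and a cofactor of the helicase EIF4A, was at 620, 625 and 495 CPM with raffinose and at 352, 434 and 374 CPM without. It lay higher in all 3 raffinose libraries (log2 fold change 0.59, SE 0.12, edgeR adjusted p = 0.151, DESeq2 adjusted p = 0.00314). EIF6, which keeps free large subunits from joining, was at 211, 215 and 193 CPM with and 263, 243 and 260 CPM without (-0.30, SE 0.06, edgeR adjusted p = 0.159, DESeq2 adjusted p = 0.0472), and the subunits EIF3C and EIF3I had -0.28 and -0.24.

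Of 15 other TOP mRNAs, some of them also in the lists above, 8 were negative with a median of -0.02, and edgeR called 0 with 4 at an unadjusted p under 0.05. Beside EIF4B and RACK1 these were VIM (-0.22, SE 0.08) and FAU (-0.22, SE 0.09). Of 14 non-coding hosts of small nucleolar RNAs 8 were negative with a median of -0.04, 0 were called and 0 had an unadjusted p under 0.05 by edgeR. The smallest p belonged to SNHG17 (-0.15, SE 0.08), SNHG5 (-0.15, SE 0.09), SNHG16 (-0.13, SE 0.10) and SNHG32 (-0.12, SE 0.10). Of 17 genes of mTOR, LARP1 and S6 kinase control edgeR called 0 with 6 at an unadjusted p under 0.05, and DESeq2 called 1 lower, the mTOR complex subunit MLST8 (-0.42, SE 0.08, edgeR adjusted p = 0.146). RPTOR (-0.26, SE 0.06) and LARP1 (-0.23, SE 0.06) were lower and LARP1B (0.27, SE 0.06) higher in every raffinose library, and none passed. Of all tested genes 10.9% lay entirely lower and 10.6% entirely higher in CPM. LARP1 was at 341, 339 and 368 CPM with and at 393, 422 and 412 CPM without raffinose (edgeR adjusted p = 0.199).

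The 31 members with the TOP stretch had a median log2 fold change of -0.07, from -0.18 to 0.08, and the 6 matched members without it a median of -0.08, from -0.12 to 0.12. The difference was not tested, and which members count as having the stretch depends on the annotated starts.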

How the data were processed

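Whole-number estimated counts and FPKM values for 6 libraries were deposited by the authors in one table, per the file headers. Tools listed in the submitters' processing notes, with no role, are HISAT2 2.0.4, StringTie 1.3.4d, cutadapt 1.9, DESeq2 and edgeR. For build, annotation and strand use the entry is "not given in the sources used here", and 25 of the 45 members start where GENCODE 29 puts them. A count of 4 was commoner than 3 or 5 (1382, 456 and 286 genes in raffinose replicate 1), so 1 read pair may add 4. Genes listed without reads have 0.0001 in the deposited FPKM columns.

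The deposited estimated counts, already whole, entered edgeR 4.0.16 (R 4.3.3) without rounding with these settings (filterByExpr with a minimum count of 10, TMM, glmQLFit, glmQLFTest, Benjamini-Hochberg over 18863 genes, threshold 0.05). SE is the absolute log2 fold change over the square root of F. Alternatives used DESeq2 1.42.0 on all genes and limma 3.58.1. The scripts were tested on simulated data. The members and lists were chosen with earlier results of these data known. All members were named, and in other lists called genes and up to 4 with the smallest p, of which 1 is not reported here. The 778 abundant genes and the overlapping rows were described after seeing the data.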

Additional observations from a re-analysis of the deposited data

How the results depend on the processing

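Across 16 alternatives 0 members were called higher and 0 lower, and the median log2 fold change of the members stayed negative, from -0.11 to -0.02. It was -0.03 in both FPKM fits (pseudocounts of 1 and 0.1) and -0.04 with library totals in place of TMM, where the median of all tested genes was 0.04. The count of negative members was 27 with either FPKM fit, 29 with library totals and 34 to 36 with DESeq2, DESeq2 size factors, no filter, counts divided by 4, pseudogene rows added, scaling without ribosomal genes or the replicate block. With each library left out it ranged from 26 to 40, and the difference in the share of counts from -0.197 to 0.0450 percentage points, so the sign of that difference rests on single libraries.

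The replicate number as a block gave 0 calls higher, 0 lower and a median of -0.0655. Deviations from the group means had correlations of -0.01, -0.03 and 0.01 between libraries of the same number, and for 0 of 6 libraries was the same-numbered one the closest, so the numbers were not taken to pair libraries.

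Of the members, 25 kept their direction in all 16 alternatives. None of the turned values was called. On log2(FPKM + 0.1) and log2(FPKM + 1) these turned, to the same value at this precision unless both are given: RPL4 (0.00400 and 0.00399), RPL8 (0.0288), RPL12 (0.00985 and 0.00983), RPL13 (0.0114 and 0.0112), RPS2 (0.0405 and 0.0403), RPS6 (0.00843 and 0.00841), RPS25 (0.0330 and 0.0329) and EEF2 (0.0170 and 0.0169). With library totals these were RPL8 (0.0246), RPL12 (0.00470), RPS2 (0.0116), RPS6 (0.00403), RPS25 (0.0256) and EEF2 (0.0129). RPS2 also turned with the replicate block (0.00259) and EEF1A1 with pseudogene rows added (-0.00728).

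With libraries left out in turn, 20 members turned. Their log2 fold changes ranged from -0.0554 to 0.182 for RPLP0, -0.244 to 0.117 for RPLP1, -0.101 to 0.0209 for RPLP2, -0.0755 to 0.0127 for RPL4, -0.0499 to 0.205 for RPL5, -0.0351 to 0.0167 for RPL8, -0.0947 to 0.151 for RPL11, -0.0715 to 0.0350 for RPL12, -0.167 to 0.0588 for RPL13, -0.283 to 0.149 for RPL14, -0.432 to 0.0300 for RPL32. For the others the range was -0.204 to 0.10 for RPS2, -0.139 to 0.0557 for RPS3, -0.0821 to 0.0383 for RPS6, -0.00428 to 0.143 for RPS12, -0.0274 to 0.0518 for RPS18, -0.0476 to 0.114 for RPS19, -0.0517 to 0.0787 for RPS25, -0.0199 to 0.0257 for EEF1A1, -0.0513 to 0.00185 for EEF2. The cause was not tested. With 3 libraries a group and a median SE of 0.08, changes of the size seen here were not detectable.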
